A study of Mus musculus with 12 samples.

Results

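Bile acid synthesis in the mouse liver was followed through 10 enzymes: Cyp7a1, Cyp8b1, Cyp27a1, Cyp7b1, Cyp39a1, Cyp2c70, Hsd3b7, Akr1d1, Slc27a5 and Baat. They were taken by gene symbol, from probe sets annotated to a single gene. All 10 were found, each with 1 probe set, among 19938 genes measured. RNA came from whole livers of male C57BL/6N mice aged 110 days and fasted for 6 h, with 3 arrays in each of 4 groups. WT_CD and WT_MR were wild-type mice on a control diet (CD) or a methionine-restricted diet (MR). KI_CD and KI_MR were homozygous Lmna G609G knock-in mice on the same diets. Diets began at 7 weeks of age in every group, and all mice came from crosses of heterozygous knock-in parents. G609G is the mouse counterpart of the lamin A mutation of Hutchinson-Gilford progeria. It is carried in the germ line, so every tissue holds it and effects from outside the liver are included. Nothing in the labels ties each array to a mouse of its own, so p-values measure only the spread between these samples, which may be technical.

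Hepatocytes turn cholesterol into bile acids along a classical branch that Cyp7a1 opens and an alternative branch that starts from oxysterols and uses Cyp27a1, Cyp7b1 and Cyp39a1. Cyp8b1 directs the classical product toward cholic acid, and in mice Cyp2c70 makes the hydrophilic muricholic acids. Hsd3b7 and Akr1d1 rearrange the sterol rings, and Slc27a5 and Baat join the finished acid to coenzyme A and then to taurine. Bile acids returning from the gut normally repress Cyp7a1 and Cyp8b1 through the nuclear receptor Nr1h4 (FXR) and the intestinal hormone Fgf15.

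Levels are given as deposited linear intensities, and changes as log2 differences of group means with their standard error (SE) from a limma model of all 12 arrays. A gene is said to have risen or fallen where limma's p, adjusted over all 19938 genes of a comparison by the Benjamini-Hochberg method, was under 0.05. Array medians were alike, between 82 and 90 units. KI_CD replicate 1 stood apart by correlation: it correlated with its own group at 0.986 on average, where the remaining arrays gave 0.989 to 0.994. It was not the only array to differ. Weights that limma estimated gene by gene were lowest for WT_MR replicate 3 (0.35), then KI_CD replicate 1 (0.46) and WT_MR replicate 2 (0.51). For enzyme comparisons that use its group, values without it are given beside the results where it moves them. The 6 hepatocyte markers, among them Alb and Apoa1, summed to between 63163 and 74113 units per array, and 0 of 6 passed the test in any comparison. Of 5 cholangiocyte markers measured, Epcam and Cftr lay below the lower quartile of gene levels. The 9 macrophage and Kupffer cell markers summed to 8158 to 9812 units in WT_CD, 6299 to 11421 in WT_MR, 6138 to 7950 in KI_CD and 6774 to 7824 in KI_MR, and 0 of 9 passed. They were nonetheless mostly lower in knock-in liver. In the genotype average 9 of 9 lay below 0 (median -0.28, all genes -0.04). With genotype on control 8 of 9 did, and under restriction 9 of 9. Among 6 stellate cell markers, Dcn rose in the genotype average (0.32 ± 0.07, limma adjusted p = 0.0324). Most of that list went the other way there, with 2 of 6 above 0 and 4 below (median -0.12). Some markers of liver zones passed as well. Of 8 pericentral markers, Rhbg fell with genotype under restriction (-1.42 ± 0.23, adjusted p = 0.0314) and in the genotype average (-0.98), where Lgr5 rose (0.58). In the diet average 0 of the 8 passed, but 8 of 8 lay below 0 (median -0.28, all genes -0.01). With diet in knock-in liver 7 of 8 lay below 0 (median -0.27), and in the genotype average 5 of 8 (median -0.30). Of 3 periportal markers measured, Cyp2f2 fell with genotype under restriction (-0.87 ± 0.09, adjusted p = 0.00486), with diet in knock-in liver (-1.04) and in both averages, and Hal rose in the genotype average (0.55). Their part in the enzyme values was not tested. In whole liver, fewer cells of a type and less RNA per cell cannot be told apart. The Lmna probe set cannot separate lamin A from progerin, the truncated product of the mutant allele, so it does not check the genotypes.

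**Figure D1:**
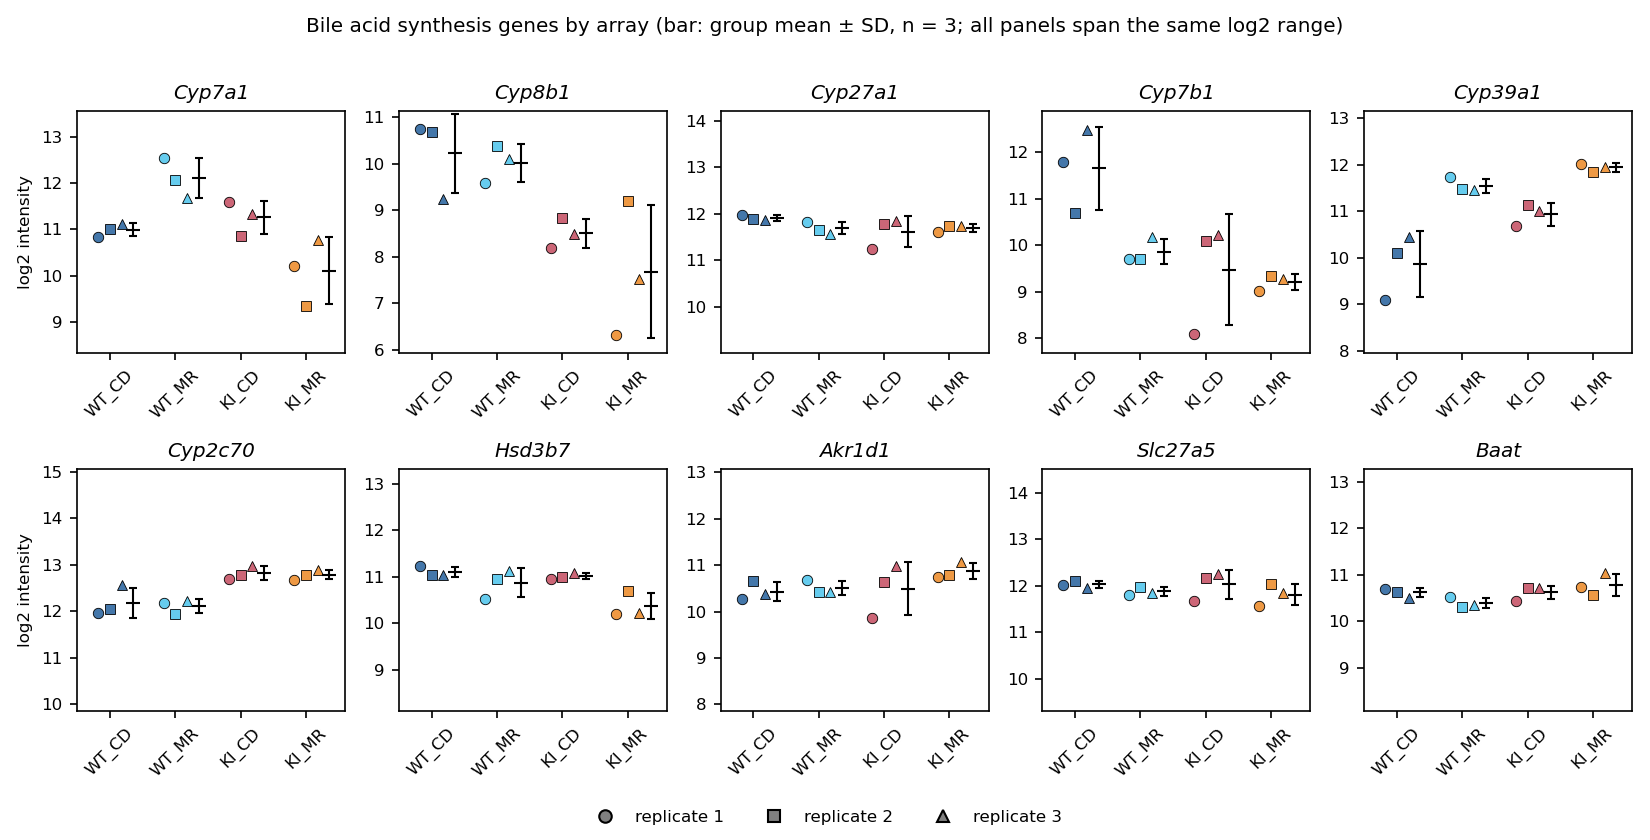
Level of each of the 10 enzymes (log2 of the deposited intensity, vertical axis) in the 4 groups, with 1 point per array, its shape giving the replicate, and a bar at the group mean ± SD (n = 3). For Cyp7a1, all 3 WT_MR arrays lie above all WT_CD arrays and all 3 KI_MR arrays lie below all KI_CD arrays.

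Cyp7a1, the rate-limiting enzyme of the classical branch, was lower in knock-in than in wild-type liver under methionine restriction. Its levels on the restricted diet lay above the control diet in wild type and below it in knock-in liver. Its intensity was 1826, 2077 and 2219 in WT_CD and 5963, 4297 and 3285 in WT_MR (replicates 1, 2 and 3). It was 3084, 1876 and 2566 in KI_CD and 1195, 653 and 1745 in KI_MR. Every WT_MR array was thus above every WT_CD array, and every KI_MR array was below every KI_CD array. Among all genes, 59 (0.296%) had groups apart in opposite directions in the 2 diet comparisons, and 50 (0.251%) had this orientation.

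The order of Cyp7a1 levels was WT_MR, KI_CD, WT_CD, KI_MR, with mean log2 levels of 12.1 ± 0.43, 11.26 ± 0.36, 10.99 ± 0.14 and 10.11 ± 0.72 (SD, n = 3 each). KI_CD and WT_CD overlapped. Under restriction, Cyp7a1 was 3.95-fold lower in knock-in than in wild-type liver, a log2 change of -1.98 ± 0.32 (95% interval -2.69 to -1.27, limma adjusted p = 0.0314). It was the only one of the 10 enzymes to pass in that comparison, where 94 genes (0.471%) passed in all. The call was lost without KI_MR replicate 1 (-2.04, adjusted p = 0.0639), KI_MR replicate 3 (-2.31, 0.0519), WT_CD replicate 1 (-1.98, 0.0538), WT_CD replicate 2 (-1.98, 0.0597), WT_MR replicate 1 (-1.76, 0.116) or WT_MR replicate 2 (-2.00, 0.122).

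The diet effects on Cyp7a1 within each genotype did not pass limma's threshold. They were 1.11 ± 0.32 in wild type (adjusted p = 0.256) and -1.15 ± 0.32 in knock-in liver (adjusted p = 0.272; -0.99 without KI_CD replicate 1). Their difference, the interaction of diet and genotype, was -2.26 ± 0.46 (95% interval -3.26 to -1.25, adjusted p = 0.652), or -2.09 without KI_CD replicate 1. Cyp7a1 ranked 13 by p among 19938 genes for this term, for which limma called 0 genes, or 0% (824 had an unadjusted p under 0.05, or 4.13%). The knock-in and wild-type control groups differed by 0.27 ± 0.32 (adjusted p = 0.74), or 0.11 without that array.

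Cyp8b1, the sterol 12-alpha-hydroxylase that determines the share of cholic acid, was lower in knock-in liver. Its intensity was 1715, 1646 and 606 in WT_CD, 767, 1338 and 1097 in WT_MR, 293, 457 and 357 in KI_CD, and 80, 584 and 183 in KI_MR. All 6 knock-in arrays lay below all 6 wild-type arrays, the closest pair being 584 in KI_MR replicate 2 and 606 in WT_CD replicate 3. Groups were apart in this way, in either direction, for 409 genes (2.05%). Mean log2 levels ran in the order WT_CD 10.22 ± 0.85, WT_MR 10.02 ± 0.41, KI_CD 8.5 ± 0.32 and KI_MR 7.68 ± 1.44 (SD, n = 3 each), with overlap between the diets within each genotype.

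Averaged over both diets, Cyp8b1 fell by 2.03 ± 0.43 on the log2 scale in knock-in liver (95% interval -2.98 to -1.09, limma adjusted p = 0.0342). Within the diets the change was -1.72 ± 0.61 on control (adjusted p = 0.342, or -1.57 without KI_CD replicate 1) and -2.35 ± 0.61 under restriction (adjusted p = 0.115), and neither passed. The change under restriction was -1.67 (adjusted p = 0.211) without KI_MR replicate 1, and it was -3.10 and passed (0.0351) without KI_MR replicate 2. In the averaged comparison 2 of the 10 enzymes passed, 1 in each direction, against 561 genes (2.81%) overall. Without KI_CD replicate 1 the averaged change was -1.96 (adjusted p = 0.048). The call was lost without KI_CD replicate 2 (-2.12, adjusted p = 0.0593), KI_CD replicate 3 (-2.03, 0.0723), KI_MR replicate 3 (-1.99, 0.0894), WT_CD replicate 1 (-1.90, 0.0921), WT_CD replicate 2 (-1.92, 0.0759), WT_MR replicate 1 (-2.14, 0.0614) or WT_MR replicate 2 (-1.94, 0.0868).

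Cyp2c70, which converts chenodeoxycholic acid toward muricholic acids, was the enzyme that rose in the same averaged comparison. Its intensity was 3961, 4232 and 6021 in WT_CD, 4648, 3889 and 4778 in WT_MR, 6540, 6968 and 8055 in KI_CD, and 6524, 7054 and 7545 in KI_MR. All 6 knock-in arrays were above all 6 wild-type arrays. The 2 diets overlapped within each genotype.

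Averaged over diets, Cyp2c70 was 1.56-fold higher in knock-in liver, a log2 change of 0.65 ± 0.11 (95% interval 0.41 to 0.88, limma adjusted p = 0.0151). The change was 0.62 ± 0.15 on control (adjusted p = 0.178, or 0.69 without KI_CD replicate 1) and 0.67 ± 0.15 under restriction (adjusted p = 0.0812), and both passed without WT_CD replicate 3 (0.81, adjusted p = 0.0497, and 0.67, adjusted p = 0.0389). The averaged call held whichever of the 12 arrays was omitted, with adjusted p between 0.00708 and 0.0482. Over the 12 arrays Cyp8b1 and Cyp2c70 levels correlated at r = -0.78, and at -0.34 once group means were removed, a description of arrays that share their groups.

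Cyp8b1 and Cyp2c70 were the enzymes that moved in opposite directions with genotype, and the promoter windows of both are shown for that reason. Each runs from 250 bases before to 50 bases after the gene's start, 5′ to 3′ on the gene's own strand, and both are from RefSeq (GRCm38.p6). The Cyp8b1 window is chr9:121916256-121916555 and the Cyp2c70 window is chr19:40187237-40187536, both on the minus strand. Capitals mark the motifs found.
Cyp8b1: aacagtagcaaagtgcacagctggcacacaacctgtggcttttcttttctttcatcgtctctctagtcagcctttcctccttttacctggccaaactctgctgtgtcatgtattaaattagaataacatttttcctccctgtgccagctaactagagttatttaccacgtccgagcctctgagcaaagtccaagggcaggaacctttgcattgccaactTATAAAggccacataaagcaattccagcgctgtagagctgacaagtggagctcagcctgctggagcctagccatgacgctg
Cyp2c70: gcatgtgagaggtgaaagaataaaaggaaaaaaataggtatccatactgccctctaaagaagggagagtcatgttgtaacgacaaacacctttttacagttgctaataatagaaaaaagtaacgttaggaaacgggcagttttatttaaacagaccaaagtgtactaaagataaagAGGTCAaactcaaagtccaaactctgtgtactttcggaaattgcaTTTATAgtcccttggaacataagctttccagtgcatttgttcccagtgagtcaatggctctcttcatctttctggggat
Windows matched 5 of the 10 enzymes (Cyp27a1, Akr1d1, Hsd3b7, Cyp8b1 and Cyp2c70). Both strands were searched for AGGTCA, the half-site bound by many nuclear receptors, for the longer CAAGGTCA that contains it and is bound by Nr5a2-type monomeric receptors, for GTTAAT, part of the Hnf1 site, and for the TATA box TATAAA. In Cyp8b1 the capitals mark TATAAA, 31 bases before the start. In Cyp2c70 they mark AGGTCA, 74 bases before the start, and then TATAAA on the opposite strand, 29 bases before the start. Among 32851 windows of 300 bases, 16.3% held AGGTCA and 13.6% held TATAAA, against 2 of 5 enzyme windows for each. CAAGGTCA was in 1.56% and GTTAAT in 7.1% of windows, and in 0 of the 5. A match is a description of the letters and not a bound site.

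On the alternative branch, Cyp27a1, the mitochondrial sterol hydroxylase that forms the first oxysterol, varied little. Its intensity was 4027, 3765 and 3727 in WT_CD, 3639, 3221 and 3048 in WT_MR, 2423, 3509 and 3695 in KI_CD, and 3112, 3400 and 3448 in KI_MR. WT_CD lay above each other group, and the other 3 groups overlapped. Cyp27a1 did not pass the test in any of the 7 comparisons.

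Cyp7b1, which hydroxylates those oxysterols, was highest in wild-type mice on the control diet. Its intensity was 3513, 1667 and 5670 in WT_CD, 837, 830 and 1158 in WT_MR, 273, 1087 and 1191 in KI_CD, and 516, 647 and 621 in KI_MR. Each WT_CD array was above every array of the other 3 groups. WT_MR and KI_CD overlapped, as did KI_CD and KI_MR, and all KI_MR arrays lay below all WT_MR arrays. Mean log2 levels were 11.65 ± 0.89 in WT_CD, 9.86 ± 0.27 in WT_MR, 9.47 ± 1.19 in KI_CD and 9.21 ± 0.17 in KI_MR (SD, n = 3 each).

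No Cyp7b1 comparison passed in the unweighted model of all 12 arrays. The change was -2.18 ± 0.53 in knock-in against wild-type controls (limma adjusted p = 0.18) and -1.79 ± 0.53 with restriction in wild type (adjusted p = 0.266). In knock-in liver restriction gave -0.26 ± 0.53, or -0.94 without KI_CD replicate 1. The lowest KI_CD value, 273, came from replicate 1, the array that stood apart. Without it the genotype change on the control diet was -1.50, and 3 comparisons passed: restriction in wild type (-1.79, adjusted p = 0.038), the genotype average (-1.08, 0.0491) and the diet average (-1.37, 0.0204). The wild-type comparison uses no KI_CD array, and its estimate was the same with and without that array. What changed there was the spread that the model shares between groups. Fitted on the wild-type groups alone, it did not pass (limma adjusted p = 0.165).

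Cyp39a1, an oxysterol hydroxylase that takes the main oxysterol made in brain, rose with methionine restriction. Its intensity was 540, 1095 and 1400 in WT_CD, 3396, 2857 and 2794 in WT_MR, 1632, 2247 and 2046 in KI_CD, and 4140, 3655 and 3973 in KI_MR. The 4 groups did not overlap, in the rising order WT_CD, KI_CD, WT_MR and KI_MR, with mean log2 levels of 9.87 ± 0.71, 10.93 ± 0.24, 11.55 ± 0.15 and 11.94 ± 0.09 (SD, n = 3 each).

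In wild type, Cyp39a1 was 3.20-fold higher under restriction, a log2 change of 1.68 ± 0.27 (95% interval 1.08 to 2.28, limma adjusted p = 0.0297). It was the only one of the 10 enzymes to pass in that comparison, where 65 genes (0.326%) passed in all. The change in knock-in liver was 1.0 ± 0.27 (adjusted p = 0.258) and did not pass, and it was 0.87 without KI_CD replicate 1. It passed without WT_CD replicate 1 (adjusted p = 0.0361). Averaged over genotypes the rise was 1.34 ± 0.19, or 2.53-fold (95% interval 0.92 to 1.76, adjusted p = 0.0083), in a comparison that called 241 genes (1.21%) and no other enzyme of the 10. That average held whichever array was omitted (adjusted p between 0.00197 and 0.0328). The wild-type call was lost without KI_MR replicate 3 (1.68, adjusted p = 0.0563), WT_CD replicate 2 (1.79, 0.0626), WT_MR replicate 1 (1.59, 0.14), WT_MR replicate 2 (1.71, 0.119) or WT_MR replicate 3 (1.73, 0.0774). Genotype changes were 1.06 ± 0.27 on control (adjusted p = 0.19, or 1.19 without that array) and 0.38 ± 0.27 under restriction (adjusted p = 0.527).

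Hsd3b7, the oxidoreductase that serves both branches, had intensities of 2414, 2103 and 2103 in WT_CD, 1475, 1970 and 2244 in WT_MR, 1998, 2050 and 2180 in KI_CD, and 1169, 1660 and 1192 in KI_MR. All KI_MR arrays were below all KI_CD arrays, while the wild-type diet groups overlapped. The change with restriction was -0.65 ± 0.16 in knock-in liver (limma adjusted p = 0.196, or -0.68 without KI_CD replicate 1) and -0.24 ± 0.16 in wild type, and the diet average was -0.44 ± 0.11 (adjusted p = 0.105). None passed, and without KI_MR replicate 2 the diet average was -0.53 (adjusted p = 0.0334). The genotype change of Hsd3b7 under restriction was -0.50 ± 0.16 (limma adjusted p = 0.194) and did not pass either. Over the 12 arrays Hsd3b7 correlated with Cyp8b1 at r = 0.72 (0.69 within groups) and with Cyp39a1 at -0.73 (-0.42 within groups). Within groups its strongest correlation among the enzymes was with Cyp7a1, at -0.82, against 0.25 over the 12 arrays.

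Akr1d1, the reductase that gives bile acids their bent ring system, ranged from 933 in KI_CD replicate 1 to 2135 in KI_MR replicate 3. Slc27a5, the bile acid-coenzyme A ligase, ranged from 3033 in KI_MR replicate 1 to 4877 in KI_CD replicate 3. Baat, which conjugates bile acids to taurine, ranged from 1267 in WT_MR replicate 2 to 2105 in KI_MR replicate 3. These late-acting genes passed the test in none of the 7 comparisons. Under restriction, all KI_MR arrays of Akr1d1 (1726, 1773 and 2135) and of Baat (1703, 1506 and 2105) were above all WT_MR arrays (1644, 1366 and 1375 for Akr1d1, and 1472, 1267 and 1311 for Baat). The Baat change there was 0.38 ± 0.12 (limma adjusted p = 0.198).

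**Figure D2:**
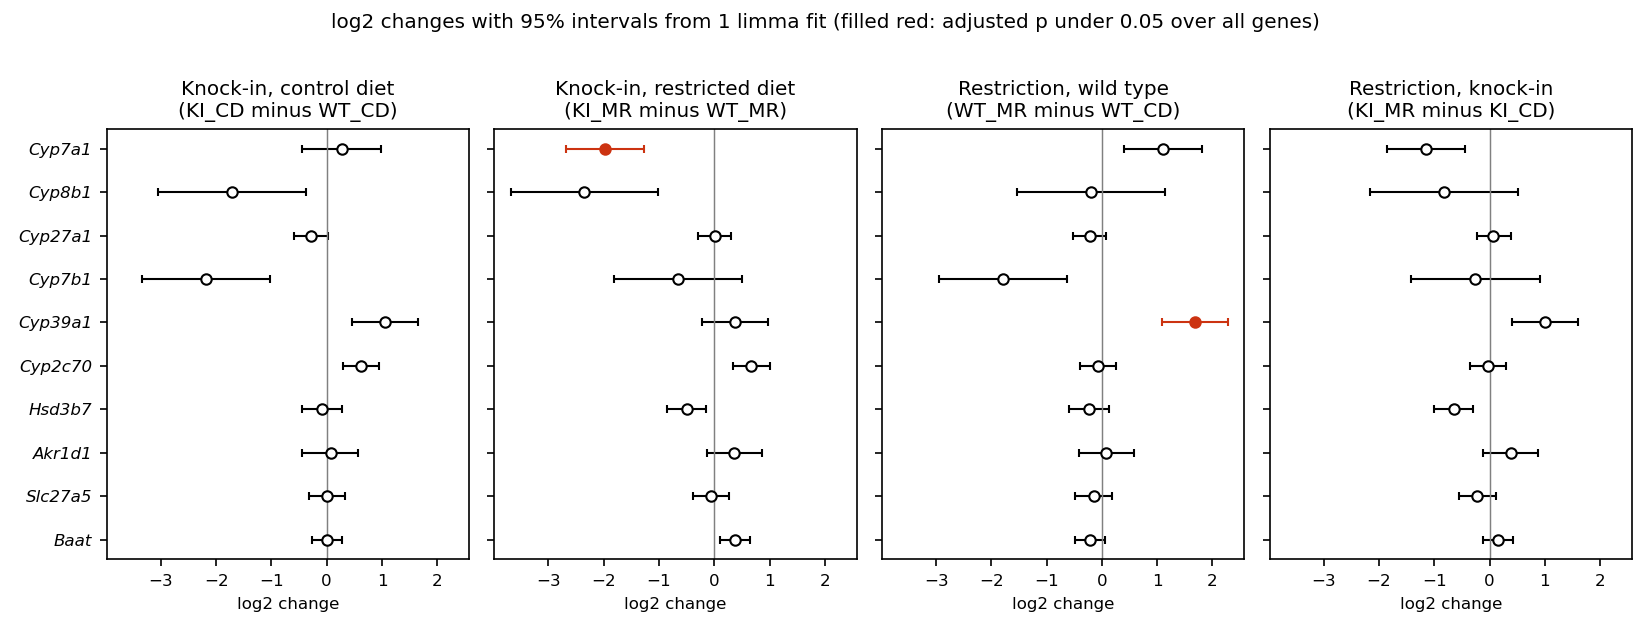
Log2 change of each of the 10 enzymes (horizontal axis) in the 4 comparisons of groups, 1 per panel, with points at the estimate, bars for the 95% interval of the limma model and filled red points where the adjusted p was under 0.05. The filled points are Cyp7a1 in KI_MR against WT_MR (-1.98) and Cyp39a1 in WT_MR against WT_CD (1.68).

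Counted over the whole set, the knock-in and wild-type groups on the control diet did not overlap for 5 of the 10 enzymes (Cyp39a1 and Cyp2c70 higher, Cyp8b1, Cyp27a1 and Cyp7b1 lower), against 19.0% of all genes. None passed limma there (4 had an unadjusted p under 0.05, against 11.2% of genes), and 16 genes (0.0802%) did overall. Under restriction the genotypes did not overlap for 7 of 10 (Cyp39a1, Cyp2c70, Akr1d1 and Baat higher, Cyp7a1, Cyp8b1 and Cyp7b1 lower), against 16.3%. The diets did not overlap for 4 of 10 in wild type (Cyp7a1 and Cyp39a1 higher, Cyp27a1 and Cyp7b1 lower), against 11.5%. In knock-in liver the number was 3 of 10 (Cyp39a1 higher, Cyp7a1 and Hsd3b7 lower), against 10.7%. There, 0 of 10 passed (3 had an unadjusted p under 0.05, against 7.78% of genes), with 35 genes (0.176%) overall.

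Enzymes lay on both sides of 0 in each of these 4 comparisons. Their median change was 0.01 with genotype on control (all genes -0.02), -0.03 with genotype under restriction (-0.04), -0.18 with diet in wild type (0) and -0.12 with diet in knock-in liver (-0.02). The median size of change, without sign, was 0.28, 0.44, 0.22 and 0.32 over the enzymes in the same order, against 0.10, 0.11, 0.07 and 0.07 over all genes. Comparisons that use the same group, such as both effects measured from WT_CD, share its arrays and are not independent. The enzymes were chosen with earlier results of these data known, and all genes include dim ones. These sizes, and the counts of groups apart, are therefore descriptions and not tests of the set.

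Cyp7b1 is known as more abundant in male than in female mouse liver, and Cyp39a1 as more abundant in female liver. The mean log2 level over 9 measured of 10 male-biased genes, among them Cyp2d9, Elovl3 and Slco1a1, was 10.83 to 11.25 in WT_CD, 7.83 to 8.75 in WT_MR, and 6.4 to 7.03 in KI_MR. In KI_CD it was 6.98 in replicate 1 and 8.82 and 8.80 in replicates 2 and 3. Their summed intensity was 21815 to 28094 in WT_CD, 3427 to 6462 in WT_MR, 2192 to 7299 in KI_CD and 1893 to 2095 in KI_MR. KI_CD replicate 1 was the lowest array of its group for this list, as it was for Cyp7b1. For the female-biased genes it was the highest of its group (8.33, against 7.54 and 8.03), whereas for Cyp39a1 it was the lowest.

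By the same limma test, 4 of 9 male-biased genes fell in knock-in liver on the control diet (median -2.64; 0.0201% of all genes fell) and 5 of 9 fell with restriction in wild type (median -2.47; 0.115% of all genes). In knock-in liver 1 of 9 fell with restriction (-1.64; 0.115% of all genes), and under restriction 2 of 9 fell with genotype (-0.28; 0.211% of all genes). Genotype on control and diet in knock-in liver both use KI_CD replicate 1, whose male-biased mean (6.98) lay within the KI_MR range (6.4 to 7.03). List counts and medians without that array are not given here. For Slco1a1, a list member, leaving it out changed both values, as given below. The mean over 8 measured of 10 female-biased genes was 6.55 to 7.24 in WT_CD, 8.04 to 8.68 in WT_MR, 7.54 to 8.33 in KI_CD and 9.01 to 9.12 in KI_MR, the same order of group ranges as for Cyp39a1 apart from overlap between WT_MR and KI_CD. Of the 8, 1 rose with genotype on control, 2 with diet in knock-in liver, 1 with diet in wild type and 2 with genotype under restriction (medians 0.97, 0.92, 1.2 and 0.45). Of all genes, 0.0602%, 0.0602%, 0.211% and 0.261% rose in those comparisons. All mice were labelled male. The part of sex-biased expression in the Cyp7b1 and Cyp39a1 values was not tested.

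**Figure D3:**
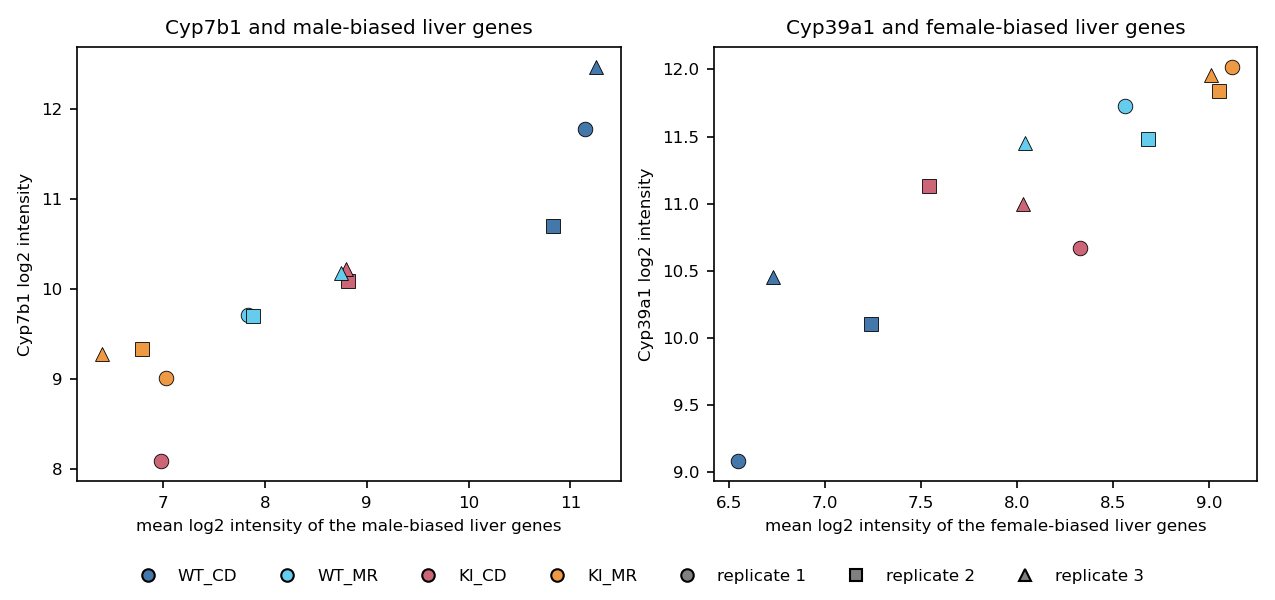
Log2 level of Cyp7b1 against the mean log2 level of the male-biased list (left) and of Cyp39a1 against that of the female-biased list (right), with 1 point per array, coloured by group and shaped by replicate. WT_CD arrays, with a male-biased mean of 10.83 to 11.25, hold the 3 highest Cyp7b1 values.

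Genes whose levels over the 12 arrays were most like those of 3 enzymes were ranked by Pearson correlation, with no test. For Cyp7b1 they were Cyp2d9 (r = 0.95, and 0.87 within groups), Slc17a3 (0.92 and 0.94) and Slc46a3 (0.92 and 0.81). Each of these had its widest spread in KI_CD (SD 0.88, 0.59 and 0.68 on the log2 scale), the group with the array that stood apart. Correlations without that array are not given here. Cyp2d9 is a member of the male-biased list. For Cyp8b1 they were Car3 (0.95 and 0.88), Igf2bp1 (0.93 and 0.78) and Ifne (0.91 and 0.91). Igf2bp1 (54 to 66 units) and Ifne (49 to 67 units) were dim, below the array medians of 82 to 90 units. For Cyp7a1 they were Naxe (0.85 and 0.34), Ntn4 (0.85 and 0.55) and Sh3d19 (0.84 and 0.64). The Cyp7a1 matches were weaker within groups than the others.

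The peroxisomal and side chain steps, which shorten the sterol tail after the ring reactions, had 16 of 18 listed genes measured. Scp2, the thiolase and carrier of the last cleavage, fell with restriction in wild type (-0.70 ± 0.12, limma adjusted p = 0.0462) and on average over genotypes (-0.65 ± 0.09, adjusted p = 0.0063). Its wild-type call was lost when any of 10 of the 12 arrays was left out (adjusted p up to 0.196), while the average held in all 12. On average over diets Abcd3, the peroxisomal importer of bile acid intermediates (-0.56 ± 0.11, adjusted p = 0.0321), and Acot8, a peroxisomal thioesterase (-0.40 ± 0.09, adjusted p = 0.038), fell in knock-in liver. Those 2 calls were lost in 6 and 7 of 12 such fits (adjusted p up to 0.0787 and 0.0974). In the other comparisons 0 of 16 passed.

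Of 14 bile acid and biliary lipid transporters, those that passed with all 12 arrays rose. Slco1a4, a sinusoidal uptake carrier, rose in knock-in against wild-type controls (2.13 ± 0.32, limma adjusted p = 0.0393) and with restriction in wild type (1.92 ± 0.32, adjusted p = 0.0333). Abcc4, a sinusoidal export pump, rose with restriction in wild type (1.49 ± 0.21, adjusted p = 0.0156). In the averages, Slco1a4 rose with genotype (1.55 ± 0.22, adjusted p = 0.00928) and with diet (1.34 ± 0.22, adjusted p = 0.0171), as did Abcc4 (0.88 ± 0.15, adjusted p = 0.0196) and the export pump Abcc3 (1.10 ± 0.20, adjusted p = 0.0271) with diet and the flippase Atp8b1 with genotype (0.42 ± 0.10, adjusted p = 0.0482). Only the genotype average of Slco1a4 held with every array left out. Slco1a1, an uptake carrier that is also in the male-biased list, was lower without passing. Its intensity was 4541, 4695 and 4597 in WT_CD, 421, 163 and 742 in WT_MR, 79, 2338 and 2206 in KI_CD, and 135, 142 and 76 in KI_MR, so KI_CD replicate 1 lay with the KI_MR arrays. The changes were -3.64 ± 1.06 with diet in wild type (adjusted p = 0.255), -2.64 ± 1.06 with genotype on control (adjusted p = 0.396) and -2.71 ± 1.06 with diet in knock-in liver (adjusted p = 0.524). Without KI_CD replicate 1 they were -3.64 (adjusted p = 0.00261), -1.02 (0.492) and -4.32 (0.00413), so that both diet changes passed. The transporter medians were 0.22 with diet in knock-in liver (12 of 14 above 0, 0 passing), 0.07 with diet in wild type (7 of 14), -0.05 with genotype on control (6 of 14) and 0.05 with genotype under restriction (9 of 14). Over all 19938 genes the medians in the same order were -0.02, 0, -0.02 and -0.04, with 8498, 9447, 8657 and 7449 genes above 0.

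Among 19 measured of 21 regulators, which include the receptors Nr1h4, Nr0b2 and Hnf4a, 0 passed in the 4 comparisons of groups. On average over diets Fgfr4, the hepatic receptor for Fgf15 (0.34 ± 0.07, limma adjusted p = 0.0303), rose in knock-in liver, and the fatty acid receptor Ppara fell (-0.37 ± 0.08, adjusted p = 0.0335). Both calls were lost in 9 of the 12 fits that left out an array (adjusted p up to 0.0817 and 0.0883). Klb, the co-receptor of Fgfr4, was 0.48 ± 0.15 higher with restriction in wild type (adjusted p = 0.33). Nr0b2 (SHP), a repressor of Cyp7a1, had an interaction of 1.03 ± 0.69 (adjusted p = 1), and neither passed. The Nr0b2 change with restriction was -0.75 ± 0.49 in wild type and 0.28 ± 0.49 in knock-in liver. Without KI_CD replicate 1 the latter turned to -0.22.

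Of 10 measured genes among 13 for taurine supply and bile acid detoxification, Csad, the decarboxylase that makes the taurine precursor hypotaurine, rose with restriction by 2.11 ± 0.20 in wild type (limma adjusted p = 0.00135) and by 2.51 ± 0.20 in knock-in liver (adjusted p = 0.0012), and both calls held whichever array was omitted. Its genotype average fell by 0.63 ± 0.14 (adjusted p = 0.0411), a call lost in 10 of the 12 fits (adjusted p up to 0.0958). Acnat2, a peroxisomal acyltransferase related to Baat, rose with genotype on control (2.03 ± 0.29, adjusted p = 0.0341), under restriction (2.0 ± 0.29, adjusted p = 0.0222) and on average (2.02 ± 0.21, adjusted p = 0.00258). The average held in all 12 fits, and the 2 separate calls were lost in 7 and 4. Slc6a6, the taurine transporter, rose with genotype on average (0.36, adjusted p = 0.0499), and Ephx1, an epoxide hydrolase, rose with diet on average (0.95, adjusted p = 0.0262). Those calls were lost in 9 and 8 fits. With all 12 arrays, 0 of the 10 fell in the 4 comparisons of groups. Without KI_CD replicate 1, Sult2a8, another gene of this list, fell with diet in knock-in liver (-2.33, limma adjusted p = 4.5e-05). It also fell then with diet in wild type (-1.74, 5.6e-05), a comparison that does not use that array, and with genotype on control (-0.82, 0.0398). With all 12 arrays the lowest changes of the list in these comparisons, none of which passed, were -1.12, -1.74 and -2.02 in the same order.

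**Figure D4:**
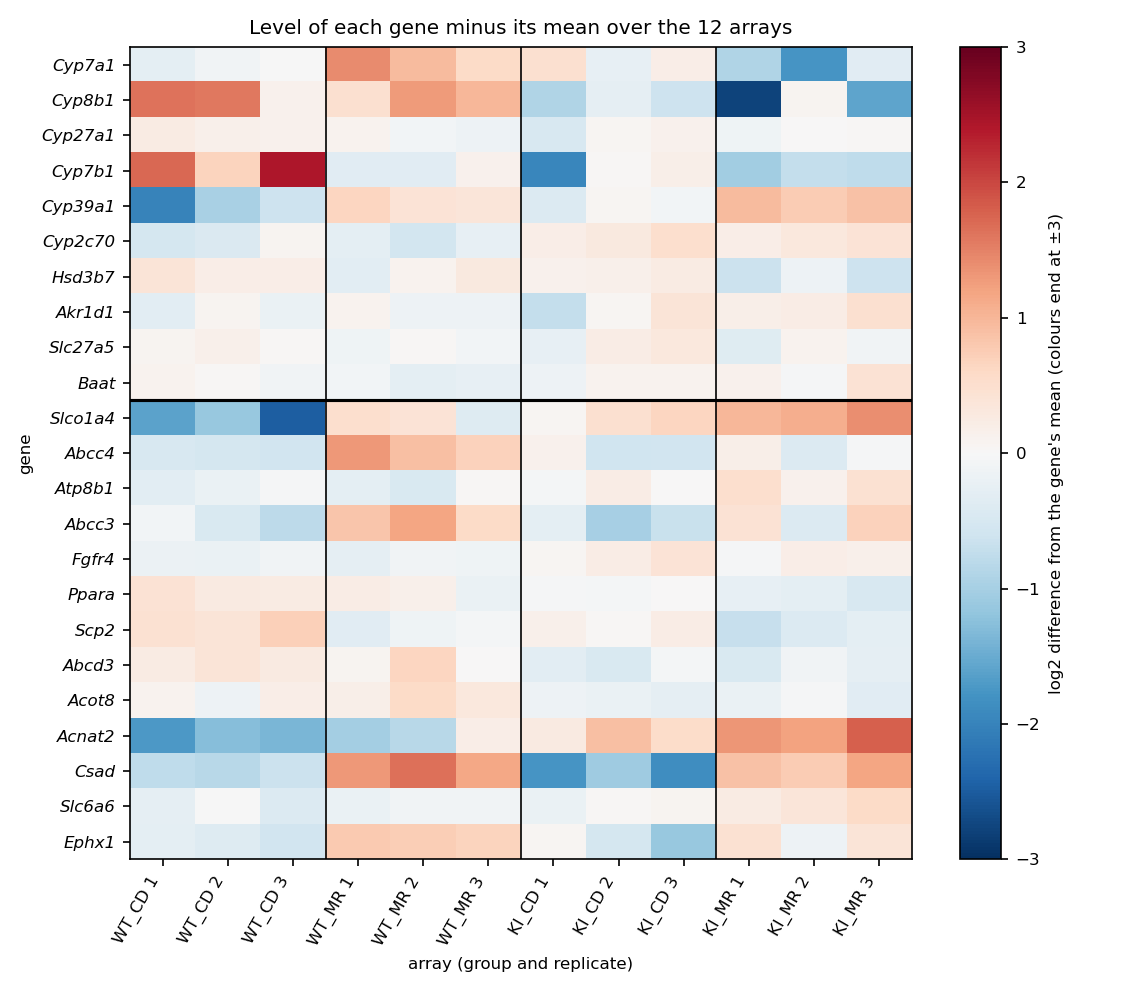
Log2 difference of each gene from its own mean over the 12 arrays (colour, ending at ±3), with arrays in columns by group; the 10 enzymes stand above the black line and the 13 genes of the other pathway lists that passed limma's test in a comparison below it. Csad is above its mean in all 6 restricted arrays and below it in all 6 control arrays, while Cyp2c70 is above its mean in all 6 knock-in arrays.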

How the data were processed

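Liver RNA of 12 samples (4 groups of 3) was extracted with Trizol and RNeasy columns, biotin-labelled and hybridised to Affymetrix arrays, per the labels' protocols. The authors deposited 1 table of linear intensities per probe set, rounded to whole numbers (10 to 20042) and already comparable between arrays. For their background correction and scaling, the method was not given in the sources used here. Values were used as log2 with nothing rescaled.

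The table held 35512 probe sets, of which 21789 carried 1 gene symbol in the platform annotation, 1621 several and 12102 none. The probe set with the highest mean was used for each of 19938 genes, 999 of which had more than 1. limma 3.58.1 (under R 4.3.3) fitted the 4 groups together, with 8 residual and 3.14 prior degrees of freedom, two-sided tests and Benjamini-Hochberg adjustment over all genes of a comparison (threshold 0.05). The comparisons were genotype within each diet, diet within each genotype, their interaction and both averages. The procedure was tested on simulated data. The number of arrays limits precision. The 10 enzymes and the gene lists were chosen with earlier results of these data known. Named list genes were those past the threshold, or otherwise up to 2 per list and comparison with the smallest p. Likeness was ranked among genes above the lower quartile of gene means, without predicted loci. Alternatives were other scalings, filters, priors, probe set choices, weights, a replicate block and leaving out each array. matplotlib 3.10.9 drew the figures, under Python 3.11.15 with pandas 2.3.3.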

Additional observations from a re-analysis of the deposited data

Results flagged for a closer look

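The diet effect on Cyp7a1 differed in direction between the genotypes: all 3 WT_MR arrays lay above all 3 WT_CD arrays, and all 3 KI_MR arrays lay below all 3 KI_CD arrays. The difference of the diet effects was -2.26 on the log2 scale, and limma's interaction test did not pass after adjustment over all genes (adjusted p = 0.652).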

How the results depend on the processing

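Alternatives that leave out no array gave 313 values of the enzymes' changes, of which 288 kept their direction and side of the threshold, 21 newly passed, 3 no longer passed and 1 turned. Array weights gave 1, 4, 3, 5 and 4 of the 10 enzymes past the threshold for genotype on control, diet in wild type, genotype under restriction, genotype average and diet average, against 0, 1, 1, 2 and 1, and turned Cyp2c70 with diet in wild type from -0.07 to 0.01. They put a weight of 16.74 on WT_MR replicate 1, so gene-by-gene weights were added after seeing the data: these gave 3, 3, 5 and 2 for the last 4 comparisons. A trended robust prior left 1 enzyme past the threshold in the genotype average, Cyp2c70 (0.65, limma adjusted p = 0.00965). Cyp8b1 no longer passed there (-2.03, adjusted p = 0.0736). Fitting only the groups compared gave 0 for diet in wild type (Cyp39a1, adjusted p = 0.0999) and 0 for genotype under restriction (Cyp7a1, adjusted p = 0.135). With arrays left out in turn, the number of enzymes past the threshold ran from 0 to 1 for genotype on control and for diet in knock-in liver, from 0 to 2 for diet in wild type and for genotype under restriction, from 1 to 3 for the genotype average and from 1 to 2 for the diet average. Signs that turned were of uncalled changes: Cyp7b1 (-0.94 to 0.12) and Cyp2c70 (-0.09 to 0.06) with diet in knock-in liver, and Cyp8b1 (-0.69 to 0.06) and Cyp2c70 (-0.19 to 0.11) with diet in wild type. With each of 12 arrays left out, calls over all genes ran from 2 to 32, 7 to 94, 17 to 199, 3 to 226, 0 to 3, 138 to 1945 and 112 to 470 for genotype on control, diet in knock-in, diet in wild type, genotype under restriction, interaction and both averages. The count of 1945, for the genotype average, came without WT_MR replicate 3. Over the other alternatives the counts also moved by more than 1.5 times. Median centring gave 22 for diet in knock-in liver and 54 for genotype under restriction, the latter 24 higher and 30 lower against 52 and 42. Quantile normalization split the genotype average 271 to 195, against 394 to 167. For genotype on control, dropping the dimmest genes gave 31 and the trended prior 26. Fitting only the groups compared gave 0, 0, 131 and 15 for genotype on control, diet in knock-in, diet in wild type and genotype under restriction. Array weights gave 168, 130, 2204, 4612, 4801 and 1369, and gene-by-gene weights 139, 126, 559, 1513, 3094 and 876, in the same order with both averages last. The causes of these moves were not tested.

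The labels do not say what a replicate number marks, so the numbers were not taken as pairing. Same-numbered arrays of different groups deviated from their group means with correlations of -0.06 to 0.24, 8 of 18 over 0.1. In a hint of structure shared by number, 11 of 12 arrays correlated best with their own number, and the main model leaves out any such structure. A replicate block gave 2 enzymes for genotype under restriction (adding Cyp2c70, 0.67, adjusted p = 0.0374) and 177 genes, and 960 genes for the genotype average, where Cyp7b1 was added (-1.42, adjusted p = 0.0476).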
